A study of Mus musculus with 6 samples.

Results

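The comparison set a macrophage sample with Akirin2 deleted against a wild-type sample, both given LPS for 2 h at 100 ng/ml (lipopolysaccharide, from the outer membrane of Gram-negative bacteria). It rests on 2 of the series' 6 arrays, 1 for each genotype, taken by their labels. The wild-type cells and the LysM-Cre+;Akirin2fl/fl cells, called Akirin2 KO here, were peritoneal macrophages of strain C57BL/6 x 129Sv mice injected with thioglycollate, which inflames the peritoneum and recruits macrophages to it. LysM-Cre is a Cre recombinase made from the lysozyme 2 locus, which is active in myeloid cells, so the floxed Akirin2 alleles are deleted in macrophages and not throughout the mouse. The other 4 arrays hold the same genotypes without LPS (0 h) and after 4 h of LPS. Not given in the labels are the number of mice behind a sample, whether the 3 samples of a genotype share mice, or whether the wild-type mice carried LysM-Cre or floxed alleles. Differences at 2 h therefore have no replicate check and no test, and the genotype, the mice and the preparation cannot be told apart in them.

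Akirin2 is a small nuclear protein without a known DNA-binding domain. It has been described as a bridge between NF-kB with its partner IkB-zeta and the SWI/SNF chromatin remodelling complex at inflammatory genes, and it also serves in carrying proteasomes into the nucleus. In macrophages LPS acts through the receptor TLR4: one branch activates NF-kB and genes such as Tnf, Cxcl1 and Il6, and another activates IRF3, whose product interferon-beta then switches on the interferon-stimulated genes. Early NF-kB targets with open chromatin can respond without new protein, while later genes such as Il6 and Il12b need newly made factors, including IkB-zeta, and remodelling of their chromatin.

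Values are log2 RMA expression values as deposited, in which a difference of 1 is 2-fold. Each gene was read from its probe set with the highest mean, and 13587 genes reached the median of at least 1 array. The 2 h arrays had medians of 3.18 each and correlated across probe sets with r = 0.989. All samples were bulk RNA, so fewer cells of a type and less RNA per cell cannot be told apart.

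At 2 h, 129 of the measured genes (0.949%) were at least 2-fold apart: 66 were higher in Akirin2 KO (0.486%) and 63 were lower (0.464%). With the mean of all probe sets of a gene the counts were 37 and 37. The higher genes were led by Lox, Mamdc2, Mustn1 and Itgb3. The lower genes were led by Hal, Akirin2 itself, the interferon-stimulated gene Rtp4 and the chemokine Cxcl14, and included Il6, Il12b, Lif and Cxcl10. The median difference over all genes was 0.0043, and the 5th and 95th percentiles were -0.48 and 0.49. On the higher side Prim2 at 1.01 was just inside the size rule and Mansc1 at 0.99 just outside it. On the lower side Gpr84 at -1.01 was just inside, and Tnfsf9 (9.03 in wild-type, 8.03 in KO) just missed it.

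**Figure D1:**
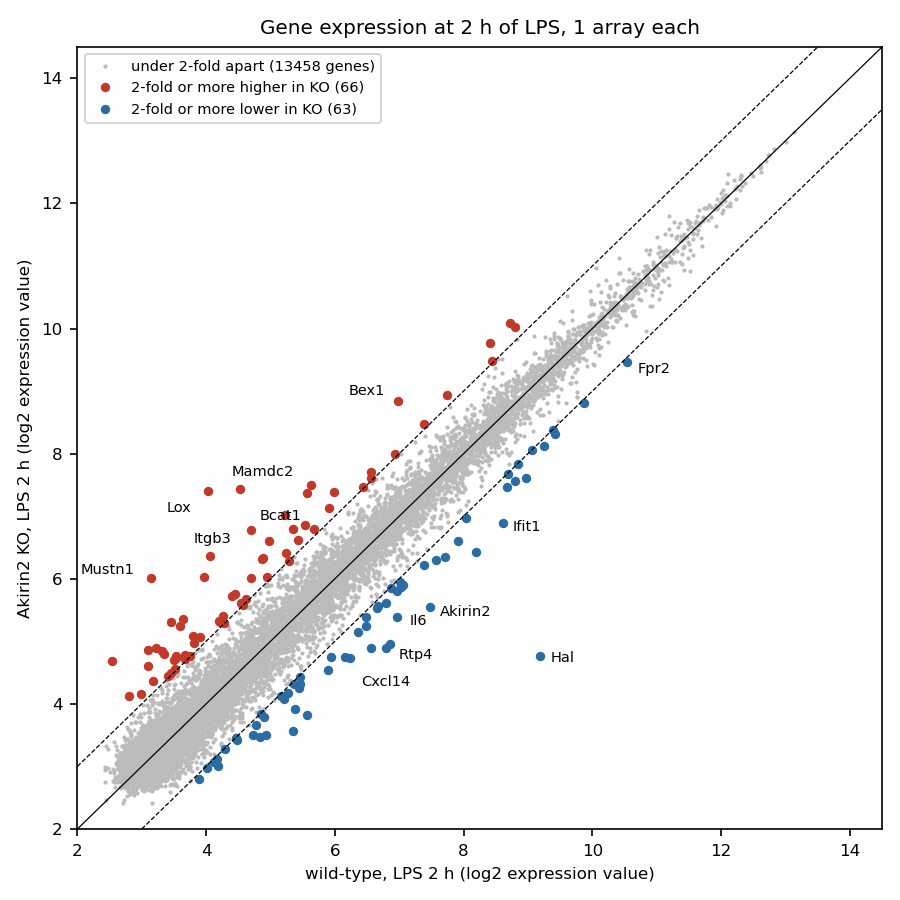
Log2 expression of each of the 13587 measured genes on the wild-type array (horizontal axis) and the Akirin2 KO array (vertical axis) after 2 h of LPS; lines mark equality and 2-fold differences. Most genes lie near the line of equality, while 66 lie at or above the upper 2-fold line and 63 at or below the lower one, with Hal and Lox farthest out.

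The targeted gene was read first. Akirin2 stood at 7.47 on the wild-type array and 5.54 on the KO array at 2 h, which is 26.2% of the wild-type level. Without LPS the values were 7.43 and 5.18, and after 4 h of it 7.33 and 4.91, so each KO array lay below each wild-type array. Over the 0 h and 4 h arrays, which do not include the 2 h pair, the difference was -2.34 ± 0.20 (SE; limma, adjusted p = 2.65e-06). A second probe set of Akirin2 near background stood at 3.25 in wild-type and 2.94 in KO. The files do not say whether these probes lie in the deleted part of the gene. Akirin1, the other member of the family, stood at 9.98 and 10.05. Lyz2, the gene whose locus carries the Cre, stood at 12.14 and 12.01.

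Genes that respond to LPS made up much of the lower group. Genes were classed by the mean of the 4 h minus 0 h differences of both genotypes (at least 2-fold either way), which uses neither 2 h array. Of 485 LPS-induced genes (3.57% of all genes), 31 were at least 2-fold lower in KO at 2 h (6.39%) against the 0.464% of all genes, and 8 were at least 2-fold higher (1.65%) against 0.486%. Their median difference at 2 h was -0.23, and 353 of them (72.8%) lay below 0, against 49.1% of all genes. The 375 LPS-repressed genes (2.76%) had a median of 0.13, with 1 at least 2-fold lower, Hal, and 10 at least 2-fold higher (2.67%). With the mean of probe sets 20 induced genes were lower and 5 higher. Genes of neither class numbered 12727, with a median of 0.0071, 31 lower and 48 higher. At 2 h the induced class thus lay towards lower and the repressed class towards higher values in KO. The induced class already had a median of -0.23 in the unstimulated pair (all genes -0.074). After 4 h its median was -0.33 (all genes 0.030). The repressed class had a median of -0.11 at 0 h and 0.29 at 4 h.

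**Figure D2:**
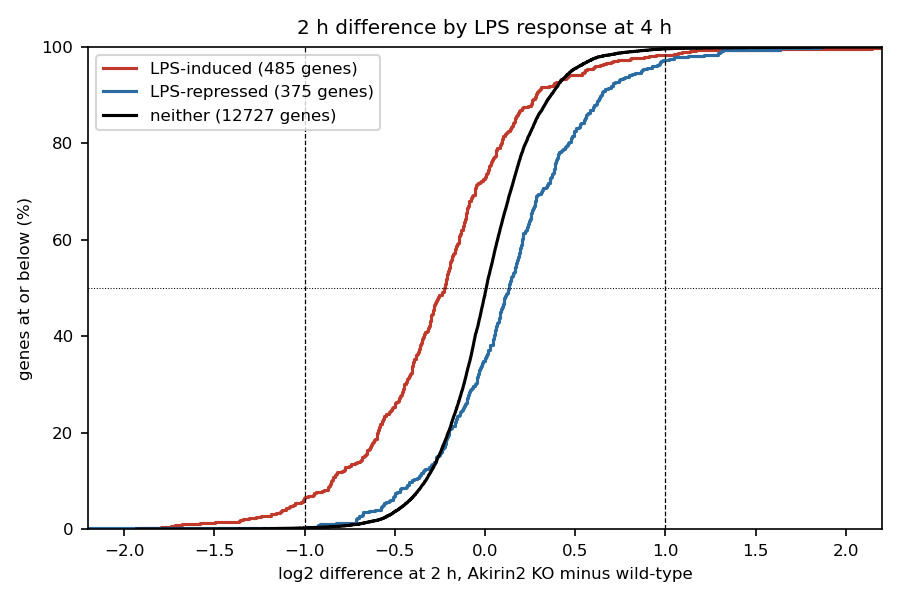
Share of genes at or below each KO minus wild-type difference at LPS 2 h (log2, horizontal axis), drawn separately for LPS-induced, LPS-repressed and other genes as classed on the 0 h and 4 h arrays. The curve of the 485 induced genes lies towards lower values (median -0.23) and that of the 375 repressed genes towards higher ones (median 0.13).

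Interferon-stimulated genes made up 10 of the 63 lower genes. Of 48 measured members, these 10 reached the 2-fold rule as lower in KO at 2 h (all genes 0.464%), 0 as higher, and 43 lay below 0 (all genes 49.1%). Their median difference was -0.43 (all genes 0.0043), against -0.37 in the unstimulated pair (all genes -0.074) and -0.94 after 4 h (all genes 0.030). The summed linear level of the list in KO was 66.1% of that in wild-type. Rtp4, a chaperone of receptors that interferon induces, stood at 6.79 in wild-type and 4.89 in KO, 3.75-fold lower. Ifit1, which binds foreign RNA lacking host cap marks, stood at 8.61 and 6.89, 3.29-fold lower. Wild-type Ifit1 had stood at 6.14 without LPS and KO Ifit1 at 3.92, so both genotypes were higher at 2 h than at 0 h, by 2.46 and 2.97, and the KO array started lower.

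Slfn1, a member of the Schlafen family, stood at 5.57 and 3.83 at 2 h. Its wild-type value was 0.72 higher at 2 h than at 0 h and its KO value 0.01 higher. Ifi27l2a stood at 8.20 and 6.43, and its levels hardly moved with LPS in either genotype (8.53 and 6.72 at 0 h). Mx1, a GTPase that blocks influenza viruses, stood at 6.23 and 4.74, after 4.48 and 4.11 at 0 h. For Mx1 the KO minus wild-type difference was thus -0.37 without LPS and larger with it. Xaf1 stood at 5.36 and 3.56, but a further probe set of it went the other way, at 3.07 in wild-type and 4.61 in KO, so no direction can be given for that gene, which the count takes by its brighter probe set.

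The other 4 lower members, named because their values passed the size rule, were Oasl2, Ifit2, Oasl1 and Bst2, with differences of -1.13, -1.05, -1.02 and -1.02. Oasl1 stood at 4.00 without LPS and 6.87 with it in wild-type, and at 3.98 and 5.85 in KO, so the genotypes were 0.02 apart at 0 h. Ifit2 was not higher at 2 h than at 0 h in either genotype (4.36 and 4.12 in wild-type, 3.25 and 3.07 in KO). Gbp2b, a guanylate-binding GTPase that interferon-gamma induces and that is not in the list, went the other way, at 2.54 in wild-type and 4.68 in KO. Over the 0 h and 4 h arrays Rtp4 (-1.45 ± 0.20, adjusted p = 0.000942), Ifit1 (-1.79 ± 0.23, adjusted p = 0.000375), Slfn1 (-1.60 ± 0.24, adjusted p = 0.00184) and Ifi27l2a (-1.73 ± 0.20, adjusted p = 0.000126) passed the limma test. Mx1 (-1.08 ± 0.26, adjusted p = 0.0534) did not. Of these, Ifi27l2a stayed called under each of 7 other settings (adjusted p up to 0.0277), while Rtp4 (up to 0.0539) stayed called under 6, Ifit1 (up to 0.0698) under 5 and Slfn1 (up to 0.102) under 2.

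Genes upstream of this program were read next. Ifnb1, which encodes interferon-beta, was near background at 2 h, with 3.24 in wild-type and 2.89 in KO. Irf1, an LPS-induced transcription factor, stood at 8.04 and 7.18. Irf7, which amplifies interferon production, stood at 3.92 and 3.05, the latter below the median of the KO array. Both were thus lower in KO. Irf4, another factor of the family, was higher in KO, at 5.74 against 4.75, after 4.70 against 5.19 at 0 h. Of 17 measured genes of interferon receptors, IRFs and STATs, 0 were 2-fold apart either way, with a median of -0.032 that changed sign under other processing.

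Among 20 measured cytokine genes, 4 were at least 2-fold lower in KO at 2 h and 0 higher (0.464% and 0.486% of all genes), with a median of -0.36 (all genes 0.0043). Il6, a cytokine of fever and the acute phase, stood at 6.97 in wild-type and 5.39 in KO, 2.99-fold lower. Without LPS the genotypes had 3.20 and 3.12, and at 4 h they had 7.13 and 5.41. Il6 was thus near background in both genotypes before LPS and higher in both afterwards, with the KO arrays lower at both stimulated times. Its difference over 0 h and 4 h, -0.90 ± 0.28, did not pass the limma test (adjusted p = 0.167), with -0.08 at 0 h and -1.73 at 4 h.

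Both subunits of interleukin-12, the cytokine that drives Th1 cells, lay below the KO array's median of 3.18 at 2 h, so the size of their differences is not known. Il12b, which encodes p40, stood at 4.19 in wild-type, 1.13 above its 0 h value, while the KO array was 0.07 above its own. Il12a, which encodes p35, stood at 3.88 and 2.80, but at 0 h KO had the higher value (3.48 against 2.75). Lif, a cytokine of the interleukin-6 family, stood at 5.46 and 4.31 after 3.22 and 3.30 at 0 h. In all, 7 of the 66 higher and 5 of the 63 lower genes had a dimmer 2 h array below its median. Among them were Mustn1, Gbp2b and Cd28 on the wild-type array and Ifit2 on the KO array. The size of those differences is not known either.

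The cytokine genes with the highest levels at 2 h responded in both genotypes. Tnf stood at 10.10 and 9.69 at 2 h, from 4.95 and 4.19 at 0 h, so it was higher at 2 h by 5.16 in wild-type and 5.49 in KO. Il1b, the pyrogen made as an inactive precursor, stood at 10.83 and 9.96 (a difference of -0.87), and was 7.24 and 6.97 above its 0 h values. Tnfsf9, the ligand of 4-1BB on T cells, stood at 9.03 and 8.03. Csf2, a growth factor of granulocytes and macrophages, stood at 4.06 and 3.20.

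**Figure D3:**
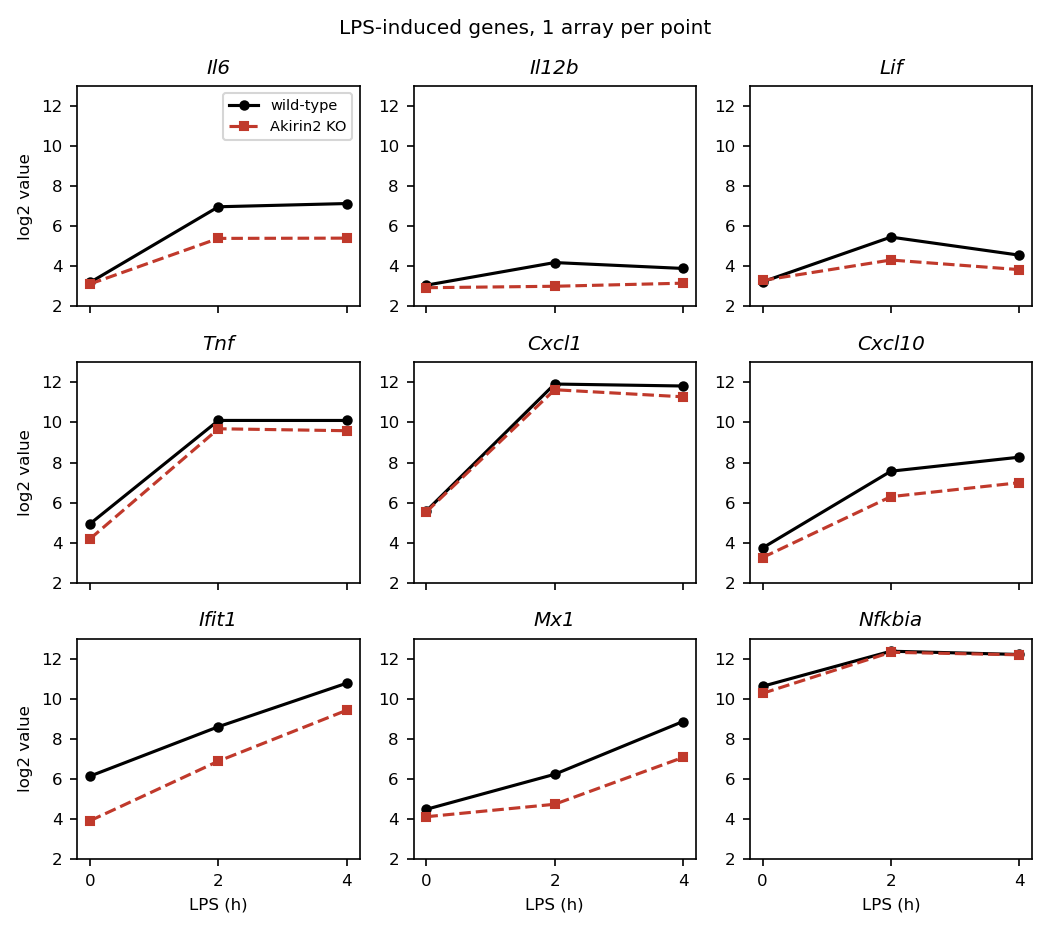
Log2 expression (vertical axis) of selected genes against hours of LPS (horizontal axis) in wild-type and Akirin2 KO, 1 array per point. Il6 starts at 3.20 and 3.12 and separates to 6.97 and 5.39 at 2 h, Tnf reaches 10.10 and 9.69, and Ifit1 is apart at all 3 times.

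Chemokines also ranged from small to large differences. Of 13 measured CXC chemokines, 3 were at least 2-fold lower in KO (all genes 0.464%), 0 higher, and 12 lay below 0 (all genes 49.1%), with a median of -0.36. Cxcl10, which draws activated T cells and is induced by interferon and NF-kB, stood at 7.57 in wild-type and 6.30 in KO at 2 h, after 3.74 and 3.26 at 0 h. Cxcl14 stood at 6.86 and 4.96, and Cxcl13, which draws B cells, at 9.26 and 8.12. Their wild-type values without LPS were 6.80 and 9.21, and both differed over 0 h and 4 h (Cxcl14 -1.59 ± 0.20, adjusted p = 0.000391; Cxcl13 -1.34 ± 0.22, adjusted p = 0.00323; limma). Cxcl14 stayed called under each of the 7 other settings and Cxcl13 under 5 (adjusted p up to 0.0882). The neutrophil chemokines Cxcl1 (11.92 in wild-type) and Cxcl2 (11.24) differed by -0.28 and -0.18.

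Of the 12 measured CC chemokines, 1 was 2-fold or more higher (all genes 0.486%) and 1 was 2-fold or more lower (all genes 0.464%). Their median was -0.14. Ccl24, an eosinophil attractant, stood at 4.74 in wild-type and 3.51 in KO. Ccl7, a monocyte attractant, stood at 5.35 and 6.79, after 3.96 and 4.96 at 0 h, and the genotypes were 0.07 apart at 4 h. Its neighbour Ccl2, also a monocyte attractant, stood at 7.10 and 7.71. Ccl3, Ccl4 and Ccl5, which draw several leukocyte types, had differences of -0.21, -0.56 and -0.61.

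The promoters of Il6, Cxcl10 and Ifit1 are shown because these genes stand for the cytokine, chemokine and interferon-stimulated groups. Each is the 250 bases before the start of the gene from RefSeq (GRCm38.p6), 5′ to 3′ on the gene's strand, and capitals mark a match to a searched motif on either strand. The motifs were GGG, any 2 bases and TTTCC for NF-kB, and GAAA, any 2 bases and GAAA for the interferon response element, which Ifit1 carries on the opposite strand.
Il6, chr5:30012864-30013113, plus strand: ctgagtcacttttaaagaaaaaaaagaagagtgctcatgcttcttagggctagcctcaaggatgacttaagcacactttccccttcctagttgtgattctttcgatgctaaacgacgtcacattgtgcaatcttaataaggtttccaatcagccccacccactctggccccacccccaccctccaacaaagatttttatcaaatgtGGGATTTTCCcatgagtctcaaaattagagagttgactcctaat
Cxcl10, chr5:92348890-92349139, minus strand: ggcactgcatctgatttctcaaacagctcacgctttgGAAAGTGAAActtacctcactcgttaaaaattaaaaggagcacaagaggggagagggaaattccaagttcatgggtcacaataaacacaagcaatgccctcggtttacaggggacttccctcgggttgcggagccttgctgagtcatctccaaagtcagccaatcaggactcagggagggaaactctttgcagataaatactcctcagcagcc
Ifit1, chr19:34640639-34640888, plus strand: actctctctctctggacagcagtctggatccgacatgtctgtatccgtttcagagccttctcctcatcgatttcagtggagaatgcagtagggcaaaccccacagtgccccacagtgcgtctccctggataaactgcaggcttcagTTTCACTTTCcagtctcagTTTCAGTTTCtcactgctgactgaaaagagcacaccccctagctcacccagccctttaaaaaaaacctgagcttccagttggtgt
Il6 holds 1 NF-kB match, Cxcl10 holds 1 interferon element match and Ifit1 holds 2. Of all 27025 genes with such a promoter, 936 (3.46%) held the interferon element and 447 (1.65%) the NF-kB motif. Among the 35 interferon-stimulated genes with a promoter, 13 (37.1%) held the interferon element: 2 of 7 that were 2-fold lower at 2 h and 11 of 28 that were not. Of all lower genes with a promoter, 5 of 52 (9.62%) held the interferon element and 1 (1.92%) the NF-kB motif. Of the higher genes, 1 of 50 (2%) and 3 (6%) did. Of the LPS-induced genes, 30 of 381 (7.87%) and 14 (3.67%) did, and of those also lower at 2 h, 2 of 26 (7.69%) and 1 (3.85%). Of all measured genes with a promoter, 357 of 10888 (3.28%) and 193 (1.77%) did. The lower genes thus held the interferon element at a share near that of LPS-induced genes. TATAAA, the core promoter box, was searched too and lay in 3872 genes (14.3%) and in none of the 3 shown. A match is a string of letters and not a measured site. Sites with other letters were not searched, so a promoter without a match may still hold a site.

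NF-kB genes and their feedback regulators leaned lower without large differences. On the deposited scale all 15 measured members lay below 0 at 2 h (median -0.28) and 0 were 2-fold apart, against 49.1% of all genes below 0. The median of the list was -0.29 without LPS and -0.18 after 4 h, so the lean was already there before LPS. Nfkbia, the inhibitor that NF-kB induces to limit itself, stood at 12.38 in wild-type and 12.32 in KO. Nfkbiz, which encodes IkB-zeta, stood at 10.09 and 9.74, after 5.61 and 5.85 at 0 h. Rel, an NF-kB subunit, stood at 6.08 and 5.52. The list of 9 genes known to depend on IkB-zeta had 2 members at least 2-fold lower (all genes 0.464%), Il6 and Il12b. It had 0 higher and 7 below 0 (median -0.36).

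Immediate early genes, which respond without new protein, went both ways. Of 22 measured, 0 were 2-fold apart, with 14 below 0 and 8 above 0 (median -0.27). The median was -0.28 without LPS and -0.23 after 4 h. The AP-1 and ATF genes Jun (8.28 in KO, 7.40 in wild-type), Fos (8.58 and 7.83) and Atf3 (9.22 and 8.47) were higher in KO, all with lower values at 2 h than at 0 h in both genotypes. Egr1, Egr3 and Ier3 were lower in KO, by differences of -0.73, -0.77 and -0.94, and Egr1 stood at 8.70 in wild-type. Toll-like receptor pathway genes had 14 of 19 below 0 and 0 that were 2-fold apart, while Tlr4 itself stood at 6.94 in KO and 6.39 in wild-type and its co-receptor Cd14 at 10.71 and 10.92.

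**Figure D4:**
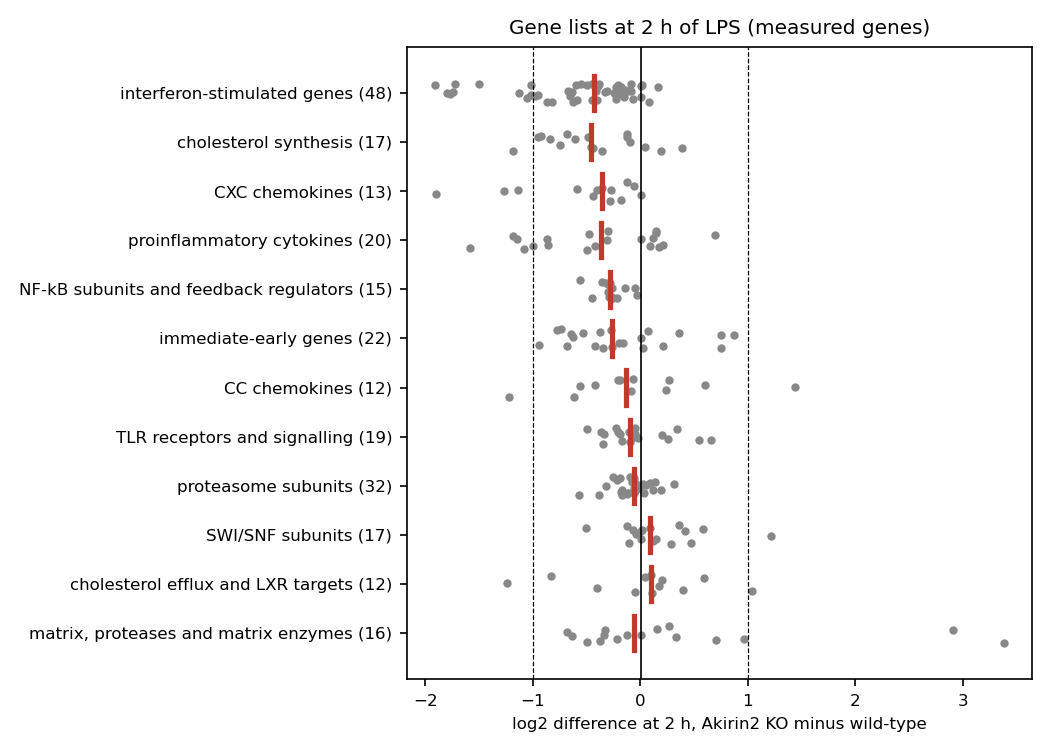
KO minus wild-type difference at LPS 2 h (log2, horizontal axis) of each measured member of selected gene lists, a row per list, with the list median marked. Interferon-stimulated genes (median -0.43, 10 of 48 at or below -1) and cholesterol synthesis genes (median -0.46) lie lowest, and NF-kB genes all lie between -1 and 0.

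Cholesterol synthesis genes also leaned lower. Of 17 measured, 14 lay below 0 at 2 h, with a median of -0.46, and 1 was at least 2-fold lower (all genes 0.464%). That gene was Cyp51, lanosterol demethylase, at 6.80 in wild-type and 5.61 in KO, which passed the limma test over 0 h and 4 h (-1.33 ± 0.20, adjusted p = 0.00199). It kept that call under 4 of 7 other settings and lost it without a floor (0.0643), with the floor at the 75th percentile (0.0749) and with the mean of its probe sets (0.108). Idi1, Sc5d, Msmo1 and Fdft1, further enzymes of the pathway, differed by -0.95, -0.92, -0.84 and -0.74. The medians at 0 h (-0.53) and 4 h (-0.55) were of the same size. The 2 h median was -0.27 with the mean of all probe sets of each gene and -0.13 without probe sets that may cross-hybridise. Apoe, the lipid carrier of macrophages, stood at 8.80 and 7.56. Nr1h3, which encodes the sterol receptor LXR-alpha, stood at 3.67 in wild-type and 4.71 in KO, while Abca1 and Abcg1, among its targets, differed by 0.18 and 0.40. Of the 12 measured genes of cholesterol efflux and LXR targets, 8 lay above 0 and 4 below 0 (median 0.10). They ran from -1.24 for Apoe to 1.04 for Nr1h3, so they went both ways.

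Hal showed the largest difference of all measured genes. The gene encodes histidine ammonia-lyase, the first enzyme of histidine breakdown. Its values were 9.42, 9.19 and 7.80 in wild-type at 0, 2 and 4 h and 5.37, 4.77 and 3.87 in KO, so at 2 h it was 21.3-fold lower. Over 0 h and 4 h it differed by -3.99 ± 0.20 (limma, adjusted p = 1.96e-09), and stayed called under each of the 7 other settings. Asns, which makes asparagine, stood at 7.71 and 6.35. Camkk2, a kinase upstream of AMPK, stood at 8.98 and 7.62, and its other probe sets differed by -1.52, -0.79 and -0.70. C1qa, a chain of complement C1q, stood at 6.16 and 4.76, and Fpr2, a receptor for formylated peptides, at 10.54 and 9.46. Nqo1, a quinone reductase under NRF2, stood at 6.48 and 5.24, while Hmox1, another NRF2 target, differed by 0.10.

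Ereg, a ligand of the EGF receptor, was higher in KO before LPS and lower after it. Wild-type values were 3.33, 5.89 and 6.38 at 0, 2 and 4 h, and KO values were 3.92, 4.55 and 5.02. Ereg was thus lower in KO at both stimulated times. The wild-type array was 2.56 above its 0 h value at 2 h and the KO array 0.63 above its own.

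Genes higher in Akirin2 KO were led by Lox, lysyl oxidase, which cross-links collagen and elastin. Its values were 3.20, 4.03 and 5.26 in wild-type at 0, 2 and 4 h and 6.05, 7.41 and 8.60 in KO, so at 2 h it was 10.4-fold higher, and it was higher with LPS in both genotypes. Mamdc2 stood at 4.53 in wild-type and 7.44 in KO at 2 h, 7.52-fold higher. Mustn1, a small nuclear protein of muscle and skeleton, stood at 3.15 and 6.02, the former below the median of the wild-type array (3.18). Itgb3, the integrin beta-3 chain, stood at 4.06 and 6.37, while its partner Itgav differed by 0.05. Lox (3.09 ± 0.21, adjusted p = 1.32e-07), Mamdc2 (2.74 ± 0.20, adjusted p = 3.98e-07), Mustn1 (2.84 ± 0.21, adjusted p = 4.45e-07) and Itgb3 (1.78 ± 0.20, adjusted p = 0.00011) passed the limma test over 0 h and 4 h, and stayed called under each of the 7 other settings.

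The metabolic genes Bcat1, the cytosolic branched-chain aminotransferase (4.71 and 6.78), and Mgst2, a microsomal glutathione transferase (3.96 and 6.03), were also higher. Other probe sets of Bcat1, near background, differed by -0.018 and -0.069. Hmga2, a chromatin protein of growing cells, stood at 5.64 in wild-type and was 3.65-fold higher in KO, and 2 further probe sets of it were higher by 1.84 and 1.17. Of the 100 measured genes nearest to Lyz2, the locus of the Cre, 1 was 2-fold apart, Hmga2, and of the 100 nearest to Akirin2 0 were. Both counts are close to the 0.949% of all genes. Cd28, known as a co-stimulatory receptor of T cells, stood at 3.10 and 4.86, and Pstpip1, a cytoskeletal adaptor, at 5.23 and 7.02.

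Growth factor and surface ligand genes went both ways. Of 12 measured growth factors, 2 were at least 2-fold lower (all genes 0.464%), Ereg and Gdf3 (-1.12). Inhba, which encodes the activin A chain, differed by 0.95 and Pdgfa by 0.91. Of 8 co-stimulation genes, 2 were at least 2-fold higher (all genes 0.486%), Cd28 and Cd200. Cd200, a ligand that restrains myeloid cells, stood at 7.74 in wild-type and 8.94 in KO. Cd40 and Icosl, through which macrophages engage T cells, were lower in KO, with differences of -0.87 and -0.86. Mfge8, which bridges dying cells to phagocytes, stood at 8.41 and 9.77.

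**Figure D5:**
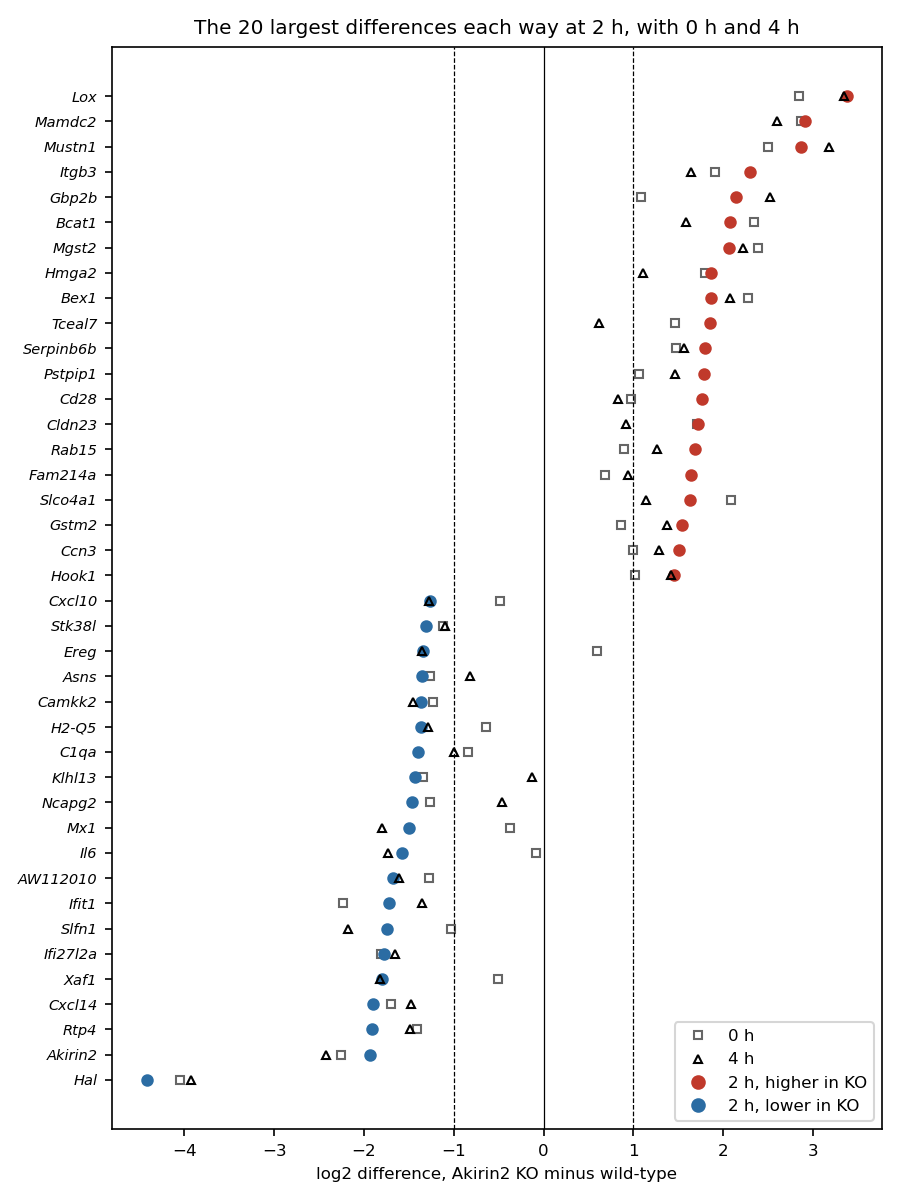
KO minus wild-type difference (log2, horizontal axis) of the 20 genes with the largest differences each way at LPS 2 h, with the differences at 0 h and 4 h of the same genes as separate symbols. Lox (3.38 at 2 h, 2.84 at 0 h) and Hal (-4.42 and -4.05) differ at each time, while Il6 has -1.58 at 2 h and -0.08 at 0 h.

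Chromatin and protein turnover genes with known ties to Akirin2 were close to wild-type. Of 17 measured SWI/SNF subunits, 1 was at least 2-fold higher (all genes 0.486%), Smarca2 (5.91 in wild-type, 7.13 in KO). Another probe set of Smarca2, however, differed by -0.26. Smarca4, the other ATPase of the complex, differed by 0.12. Of 32 proteasome genes, 0 were 2-fold apart (median -0.059). Of 24 cell cycle genes, 20 lay below 0 and 0 were 2-fold apart (median -0.20). Amino acid genes had 1 higher and 2 lower of 13, and complement and Fc receptor genes 0 higher and 1 lower of 11. Over all genes 0.486% were higher and 0.464% lower. MHC class II, glycolysis, scavenger receptor, BCL-2 and ER stress lists had 0 genes 2-fold apart either way, and their medians lay between -0.14 and 0.15, with those of glycolysis and scavenger receptors changing sign under other processing.

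Most genes that differed at 2 h leaned the same way at the other times. Of the 66 higher genes, 62 had the same sign at both 0 h and 4 h, 19 were 2-fold higher at all 3 times and 23 passed the 2-fold rule at 2 h alone. Of the 63 lower genes, 55 had the same sign at both, 18 were 2-fold lower at all 3 times and 19 passed at 2 h alone. Over all genes, 37.6% had the same sign at all 3 times. The pairs of arrays at the 3 times share no array but may share mice. In the unstimulated pair 262 genes were 2-fold apart (1.93%), 106 higher (0.78%) and 156 lower (1.15%). The 4 h pair had 197 (1.45%), 113 higher (0.832%) and 84 lower (0.618%).

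The limma test over 0 h and 4 h, which leaves out the 2 h arrays, called 72 genes higher (0.53%) and 86 lower (0.633%). At 2 h 71 of the 72 and 86 of the 86 had the same sign, and 42 and 34 were at least 2-fold apart that way. Its p-values rest on 1 residual degree of freedom and a spread borrowed from all genes (prior degrees of freedom of 16.7), so they mostly follow the mean size of a difference, and they say nothing of the spread between mice. Slfn1, with differences of -1.03 and -2.18, passed. The counts depended on the processing, with 9 and 5 genes called without a floor. Of 50 named genes called, 11 stayed called under each of the 7 other settings that gave a value. Among genes that passed at 2 h alone were Il12b, Lif and Il12a among the lower ones and Ccl7, Nr1h3 and Smarca2 among the higher ones. Of these, Ccl7 just missed the rule at 0 h (0.997) and Smarca2 at 4 h (0.963). A limma term for a genotype difference at 2 h apart from the other times called 0 genes (0%), so no difference was shown to belong to 2 h. At an unadjusted p under 0.05 it had 180 genes (1.32%), a smaller share than the 0.05 expected without any difference. Its error comes from the change of the genotype difference between 0 h and 4 h, moderated over genes. Genes whose difference changed with LPS, such as Il6, thus widened their own error, and the term may have missed differences.

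Markers of cell identity were read on the same arrays. The 10 measured macrophage markers had a summed linear level of 21640 in wild-type and 21749 in KO (100.5%), with 0 of them 2-fold apart. Of these markers 7 lay below 0 at 2 h and 3 above 0, from -0.79 to 0.36 (median -0.063). Csf1r, Lyz2 and Adgre1 stood at 12.61, 12.14 and 8.94 in wild-type. Of 10 measured markers of resident peritoneal macrophages, 9 lay below 0 at 2 h, and 1, Cxcl13, was at least 2-fold lower. The median difference of these markers was -0.57 in the unstimulated pair, -0.37 in the 2 h pair and -0.17 in the 4 h pair. Their summed linear level at 2 h was 1384 in wild-type and 957 in KO (69.1%). Most of that gap came from Cxcl13 alone (9.26 in wild-type, 8.12 in KO), so the sum says little of the other markers. Mesothelial and fibroblast markers, of which 12 were measured, summed to 92.9% of wild-type (6720 and 6241), with 8 of the 12 below 0 and 4 above 0, from -0.74 for Col1a2 to 0.37 for Krt19. Of 9 neutrophil, 8 B cell and 11 T and NK cell markers, 5, 6 and 3 were above the floor, and the erythroid markers Hba-a1 and Alas2 were not. The part of these markers in the gene differences was not tested.

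Signs of RNA quality were read as well. The 3′ minus 5′ log2 difference of Actb was 4.16 in wild-type and 4.50 in KO, and that of Gapdh was 4.33 and 4.52. Actb was also higher in KO at 0 h (4.22 and 4.64) and 4 h (4.09 and 4.36). Gapdh was higher in KO by less at 0 h (4.33 and 4.34) and 4 h (4.42 and 4.44). The part of RNA quality in the gene differences was not tested. Of the 66 higher genes, 32 had another probe set above the floor, and 40 of those 50 probe sets had the same sign. Of the 63 lower genes, 28 did, and 42 of 49 had the same sign. Neo1, Pyroxd2, Sema4d, Smarca2, Ndn, P2rx7, Vti1a and Xaf1 had another probe set that went the other way by over 0.25.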

How the data were processed

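RNA of thioglycollate-elicited macrophages was labelled and hybridised to Affymetrix mouse arrays, 1 array for each of 6 conditions. The authors deposited log2 values per probe set, for which the submitters' processing notes name RMA; its version is not given in the sources used here. RMA as usually run removes background, gives all arrays the same quantiles and combines the probes of a set, and its values understate differences of dim genes.

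The 45101 probe sets comprised 34958 with a single symbol, 932 with several and 9211 without a name here; 34754 matched RefSeq genes of GRCm38.p6 by gene number. Each of 18194 genes took its single-symbol probe set with the highest mean, and 13587 genes reached their array's median on at least 1 array. The 2 h difference is KO minus wild-type and was described by a 2-fold size rule. Tests used limma 3.58.1 in R 4.3.3 (lmFit, eBayes, Benjamini-Hochberg over all 13587 genes at 0.05), with a residual degree of freedom of 1 and prior degrees of freedom of 16.7. They were checked on simulated data with independent noise for each array, which holds no spread shared by the arrays of a genotype. Arrays give no depth, and their number limits the precision.

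Named genes were Akirin2, Akirin1, Lyz2, the 20 largest differences each way, and for each gene list its first 3 members and the 6 with the largest differences; other genes named were chosen after their values were seen. The comparison, the 31 function lists and the 10 cell type lists were chosen with earlier results of these data known. Alternatives changed the floor, the probe set, the normalization, the size rule and the test's prior and threshold.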

Additional observations from a re-analysis of the deposited data

Results flagged for a closer look

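Signal appeared in probe sets that the comparison did not use because they had no gene name here. Of 6130 such probe sets above background, 18 reached the 2-fold rule as higher and 13 as lower in Akirin2 KO at 2 h. Neither is a larger share than among the 13587 named genes (0.486% higher and 0.464% lower). The unnamed probe set with the largest difference stood at 8.52 in wild-type and 4.44 in KO, a difference of -4.08, with -4.03 at 0 h and -3.17 at 4 h. Those differences are close in size to those of Hal. Of the unnamed probe sets, 2 were 2-fold higher and 3 were 2-fold lower at all 3 times.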

How the results depend on the processing

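Counts of genes 2-fold apart at 2 h (66 higher, 63 lower) were within 1.5 times of these without a floor, with a higher floor, without cross-hybridising probe sets, with quantile normalization again and with centred arrays. They were 37 and 37 with the mean of a gene's probe sets, 420 and 369 at 1.5-fold, and 17 and 9 at 3-fold. LPS-induced genes lower or higher in KO (31 and 8) were 20 and 5 with the mean of probe sets. Genes called over 0 h and 4 h (72 higher, 86 lower) were 9 and 5 without a floor, 8 and 4 with the floor at the 75th percentile, 34 and 36 with the mean of probe sets, 37 and 25 after quantile normalization again, 33 and 24 after centring, 177 and 199 with a trended robust prior, and 115 and 150 at an adjusted p of 0.1; the cause was not tested. The 2 h term called 0 genes under each alternative. Without cross-hybridising probe sets Bcat1 reversed to -0.069 and Smarca2 to -0.26. Medians of the interferon-stimulated, cytokine, CXC chemokine and NF-kB lists kept their sign under the alternatives run. No paired analysis was possible because the labels carry no replicate numbers and each condition has 1 array. A 2 h term fitted with the 0 h or the 4 h pair alone has as many coefficients as its 4 arrays, so for that term only differences were given. Arrays near background limit what can be seen of Ifnb1, Il12a, Il12b, Csf2, Irf7, Ifit2, Mustn1, Gbp2b and Cd28.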
